A study of Mus musculus with 10 samples.

Results

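Chemokines are small secreted proteins that direct the movement of white blood cells, and chemokine receptors are the G protein-coupled receptors that read them. A row of the count table was taken as a chemokine gene when its symbol began with Ccl, Cxcl, Cx3cl, Xcl, Ccr, Cxcr, Cx3cr, Xcr or Ackr followed by a digit and when it held at least 10 reads over all libraries. Such a symbol was carried by 62 of the 24015 genes counted, and 37 of these reached the read minimum: 20 ligands, 16 signalling receptors and 1 atypical receptor, Ackr4. The other 25 had fewer than 10 reads, and 15 of them had none. The rule used only symbols and read totals over all libraries, and the genes were chosen with earlier results of these data known.

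The cells, called MAF9, were C57BL/6 mouse bone marrow cells carrying the MLL-AF9 fusion gene by transduction and were kept in IMDM with 15% FBS and 10 ng/ml IL-3. Every culture, the DMSO controls included, therefore carried MLL-AF9 and received IL-3. The cells were exposed for 4 days to DMSO, to MM-401 (which blocks the MLL1-WDR5 interaction), to EPZ5676 (an inhibitor of the methyltransferase DOT1L), to MI-2-2 (a MENIN inhibitor) or to iBET (a bromodomain inhibitor), each inhibitor at its own growth-inhibitory dose, so that doses differ between compounds. Each of the 5 conditions had 2 libraries, called biological duplicates in the labels, and nothing states that they came from separate transductions. The labels name no sorting, so that the cells are a bulk population in which more cells of a type and more RNA per cell cannot be told apart.

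As background, CXC ligands such as Cxcl1, Cxcl2 and Cxcl3 signal through CXCR2 and draw neutrophils, while CC ligands such as Ccl2, Ccl7 and Ccl12 signal through CCR2 and draw monocytes. Ccl3 and Ccl4 are inflammatory ligands of macrophages, and Ccl6 and Ccl9 are myeloid ligands of mice that act on CCR1, as Ccl3 does. CXCR4, whose ligand is Cxcl12, keeps stem cells, progenitors and immature neutrophils in the bone marrow, and neutrophils gain CXCR2 as they mature.

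Libraries held between 20394762 and 29473127 counted reads, and 1 read in the shallowest was worth 0.0490 counts per 1000000 reads (CPM). Levels are given below as CPM after TMM normalization, and between genes as CPM per kilobase of exon. The second DMSO library stood apart. It held 3630 reads on 4 Y-linked genes, against 0 to 2 in each of the other 9 libraries, and 4.65 CPM of the X-inactivation transcript Xist, against 1026 to 2818. The DMSO libraries therefore did not share a source of cells. Among genes averaging 1 CPM or more, 15.8% differed more than 2-fold between the DMSO libraries, against 1.41% to 4.29% within the inhibitor groups. Results are therefore also given without each DMSO library. The whole-leukocyte genes Ptprc and Spi1 were present in every library, summed at 628 to 1448 CPM. The T cell genes Cd3e and Cd8a and the erythroid gene Hbb-b1 had no read in any library. Other genes of the same lists had reads. Klf1 stood at 0.282 to 1.17 CPM, Itga2b at 0.240 to 2.95, and Nkg7 at 65.7 in the second DMSO library. Genes without a read therefore do not show that transcripts of these lists were absent.

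Some neighbouring chemokine genes had unlike fitted changes, and the promoters of 6 genes are shown here because the results below set them side by side. Ccl6 and Ccl9 are adjacent ligand genes, Ccr1 and Ccr2 lie in one receptor cluster, and Cxcr2 and Cxcl2 are a receptor and its ligand. Each sequence covers 250 bases before and 50 bases after the annotated transcription start (RefSeq, GRCm38.p6, a later build than the mm9 named for the deposited counts), 5′ to 3′ on the strand of the gene. Capitals mark matches, on either strand, to 5 short motifs: TTGCNNAA (C/EBP), GGG followed by any 2 bases and TTTCC (kappaB), GAGGAA (PU.1), TGANTCA (AP-1) and TTCNNNGAA (STAT). Positions count from 0 at the start site and name the first base of the match.
Ccl6, chr11:83593038-83593337, minus strand: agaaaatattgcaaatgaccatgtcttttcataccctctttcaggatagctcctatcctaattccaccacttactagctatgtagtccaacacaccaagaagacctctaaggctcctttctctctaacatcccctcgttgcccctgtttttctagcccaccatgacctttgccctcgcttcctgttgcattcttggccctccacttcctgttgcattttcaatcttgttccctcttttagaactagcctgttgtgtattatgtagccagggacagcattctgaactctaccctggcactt
Ccl9, chr11:83578587-83578886, minus strand: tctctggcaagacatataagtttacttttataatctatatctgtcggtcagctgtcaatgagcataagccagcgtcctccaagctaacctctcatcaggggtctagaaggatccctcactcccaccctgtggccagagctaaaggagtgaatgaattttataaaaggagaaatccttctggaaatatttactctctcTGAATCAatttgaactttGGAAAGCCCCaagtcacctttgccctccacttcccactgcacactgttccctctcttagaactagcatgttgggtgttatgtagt
Ccr1, chr9:123968643-123968942, minus strand: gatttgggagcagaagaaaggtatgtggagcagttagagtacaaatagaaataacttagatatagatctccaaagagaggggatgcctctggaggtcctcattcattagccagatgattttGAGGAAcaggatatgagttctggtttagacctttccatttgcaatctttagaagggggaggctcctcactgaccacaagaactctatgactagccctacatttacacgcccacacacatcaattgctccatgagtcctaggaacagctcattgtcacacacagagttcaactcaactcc
Ccr2, chr9:124101933-124102232, plus strand: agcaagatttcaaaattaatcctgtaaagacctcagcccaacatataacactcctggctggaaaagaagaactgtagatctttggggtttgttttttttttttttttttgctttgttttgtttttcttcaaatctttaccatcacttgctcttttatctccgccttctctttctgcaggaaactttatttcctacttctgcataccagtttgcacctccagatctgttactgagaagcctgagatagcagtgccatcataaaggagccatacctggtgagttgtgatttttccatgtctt
Cxcr2, chr1:74153744-74154043, plus strand: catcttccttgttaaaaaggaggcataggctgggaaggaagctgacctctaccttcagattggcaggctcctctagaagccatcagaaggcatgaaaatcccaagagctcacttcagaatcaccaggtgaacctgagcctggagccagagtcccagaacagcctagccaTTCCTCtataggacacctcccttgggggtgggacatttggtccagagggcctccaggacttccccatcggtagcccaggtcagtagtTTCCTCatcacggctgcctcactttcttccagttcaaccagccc
Cxcl2, chr5:90903649-90903948, plus strand: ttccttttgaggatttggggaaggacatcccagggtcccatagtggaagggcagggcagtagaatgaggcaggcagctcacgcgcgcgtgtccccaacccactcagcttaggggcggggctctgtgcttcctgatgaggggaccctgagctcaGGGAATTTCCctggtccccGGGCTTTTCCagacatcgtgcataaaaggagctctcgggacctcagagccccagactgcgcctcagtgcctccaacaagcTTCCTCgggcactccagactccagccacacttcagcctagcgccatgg

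The Cxcl2 promoter held 2 kappaB matches, at -97 and -78, and a PU.1 match at 2. The Ccl9 promoter held an AP-1 match at -53 and a kappaB match at -35. PU.1 matches stood at -129 in Ccr1 and at -81 and 6 in Cxcr2, and the windows of Ccl6 and Ccr2 held none of the 5 motifs. No 2 matches in these 6 windows overlapped. Over 32851 promoters of the same length, 1.63% held the kappaB letters, 28.3% those of PU.1, 10.8% those of C/EBP, 7.81% those of AP-1 and 8.3% those of STAT. The table held 30 promoters of 27 chemokine genes, of which 4 held kappaB, 11 PU.1, 2 C/EBP, 6 AP-1 and 3 STAT. These matches describe letters only.

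In cells given DMSO the chemokine system was carried by a few genes. Per kilobase, Cxcr4 stood highest at a mean of 126 CPM, followed by the ligand Ccl9 at 61.1. Ccl6 (23.5), Ccl3 (21.3), Ccr1 (17.2) and Ccr2 (13.7) followed. The DMSO libraries of Ccl6 and Ccl3 were more than 2-fold apart, so that the order of these genes is not set. Ccl4 stood at 3.16 CPM per kilobase and Cxcr2 at 1.06, and every other gene with a chemokine symbol was below 1 in DMSO. With MI-2-2 the order was another one: Ccl6 led at 740, followed by Cxcr4 (182), Ccr1 (105), Ccl3 (94.1), Ccl9 (84.9), Cxcr2 (80.9) and Ccl2 (46.8).

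**Figure D1:**
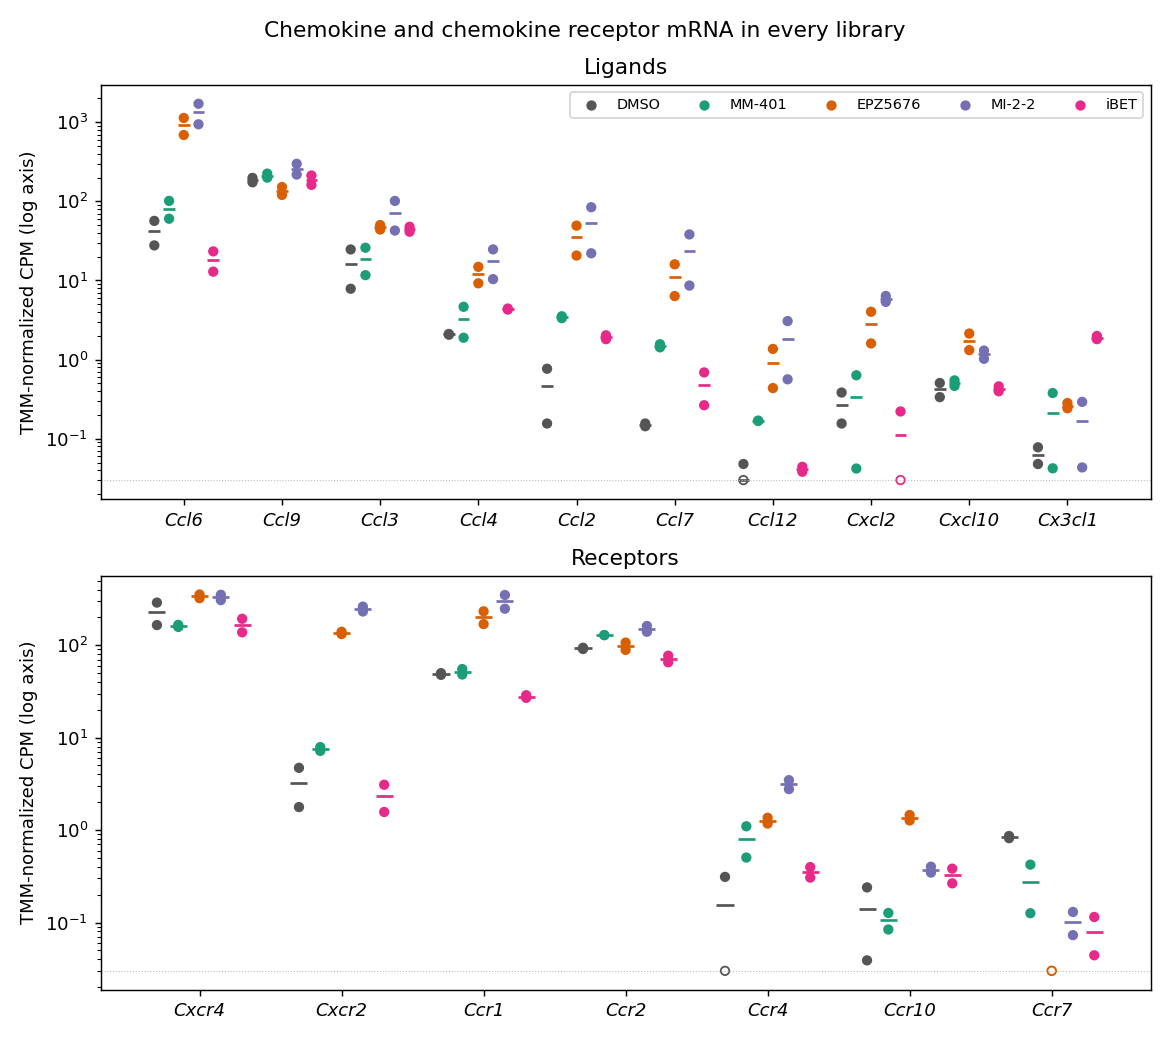
Levels of the 10 ligands and 7 receptors described gene by gene, as TMM-normalized CPM on a log axis, with 1 point per library and a bar at the mean of each condition. Open points on the dotted line are libraries without a read, and the EPZ5676 and MI-2-2 points of Ccl6, Cxcr2, Ccr1, Ccl2 and Ccl7 lie above all points of the other conditions.

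Summed over all 20 ligands, the level was 271 and 237 CPM in the DMSO libraries, 904 and 1429 with EPZ5676 and 1261 and 2279 with MI-2-2. It was 370 and 287 with MM-401, and 241 and 291 with iBET, whose libraries overlapped those of DMSO. The 16 receptors summed to 315 and 437 CPM in DMSO, 753 and 822 with EPZ5676, 941 and 1143 with MI-2-2, 353 in both MM-401 libraries, and 237 and 301 with iBET. Ccl6 made up most of the ligand sum with EPZ5676 and MI-2-2.

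A count filter over all genes kept 26 of the 37 chemokine genes (14 ligands, 11 receptors and Ackr4) among 12971 genes tested. The other 11 (Cxcl16, Ccl5, Cxcl14, Cxcl3, Cxcl15, Ccl17, Ccr9, Cxcr6, Xcr1, Ccr1l1 and Cxcr3) were not tested, and none of them exceeded 0.719 CPM in any library. Of the 26, only 11 were at the level of the filter, 0.428 CPM, in both DMSO libraries. Ccl12, Ccr10, Cxcl2, Ccl24 and Ccr3 reached it in 2 libraries only with the help of EPZ5676 or MI-2-2 libraries, so that the counts below cover genes whose passing depended in part on being high with those inhibitors. A gene was called when its adjusted p (edgeR's quasi-likelihood test, Benjamini-Hochberg over all 12971 genes) was under 0.05. Of the genes helped through the filter, Ccl12 and Cxcl2 are among the calls with both inhibitors and Ccr10 among those with EPZ5676. Of the genes called higher with EPZ5676 or MI-2-2, 6 were at the filter level in both DMSO libraries (Cxcr2, Ccl6, Ccl3, Ccl4, Ccr1 and Ccr2).

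With EPZ5676, 13 of the 26 tested chemokine genes were called against DMSO, 12 higher and 1 lower. Over all genes tested 38.1% were called (18.7% higher, 19.4% lower). The median log2 fold change was 1.86 over the chemokine genes and -0.06 over all genes. With MI-2-2, 14 were called, 13 higher and 1 lower, against 41.4% of all genes (20.2% higher, 21.2% lower), with medians of 1.40 and -0.05. Both EPZ5676 libraries were above both DMSO libraries for 18 of the 26 genes and below them for 3, against 31.6% and 33% of all genes tested. The same counts for MI-2-2 were 20 and 3, against 33.1% and 34.9%. DESeq2 called 14 chemokine genes with EPZ5676 (40% of all genes) and 12 with MI-2-2 (43%). These comparisons share the DMSO libraries. Without the first DMSO library 13 (51% of all genes) and 15 (53.9%) were called for EPZ5676 and MI-2-2, and without the second 15 (35.5%) and 16 (37.6%). With scaling by total counts, which moved the median of all genes by -0.17 with EPZ5676 and -0.15 with MI-2-2, the share of all calls that were higher went from 49.2% to 34.7% and from 48.9% to 37.1%, while 12 chemokine genes were still called higher in each comparison.

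**Figure D2:**
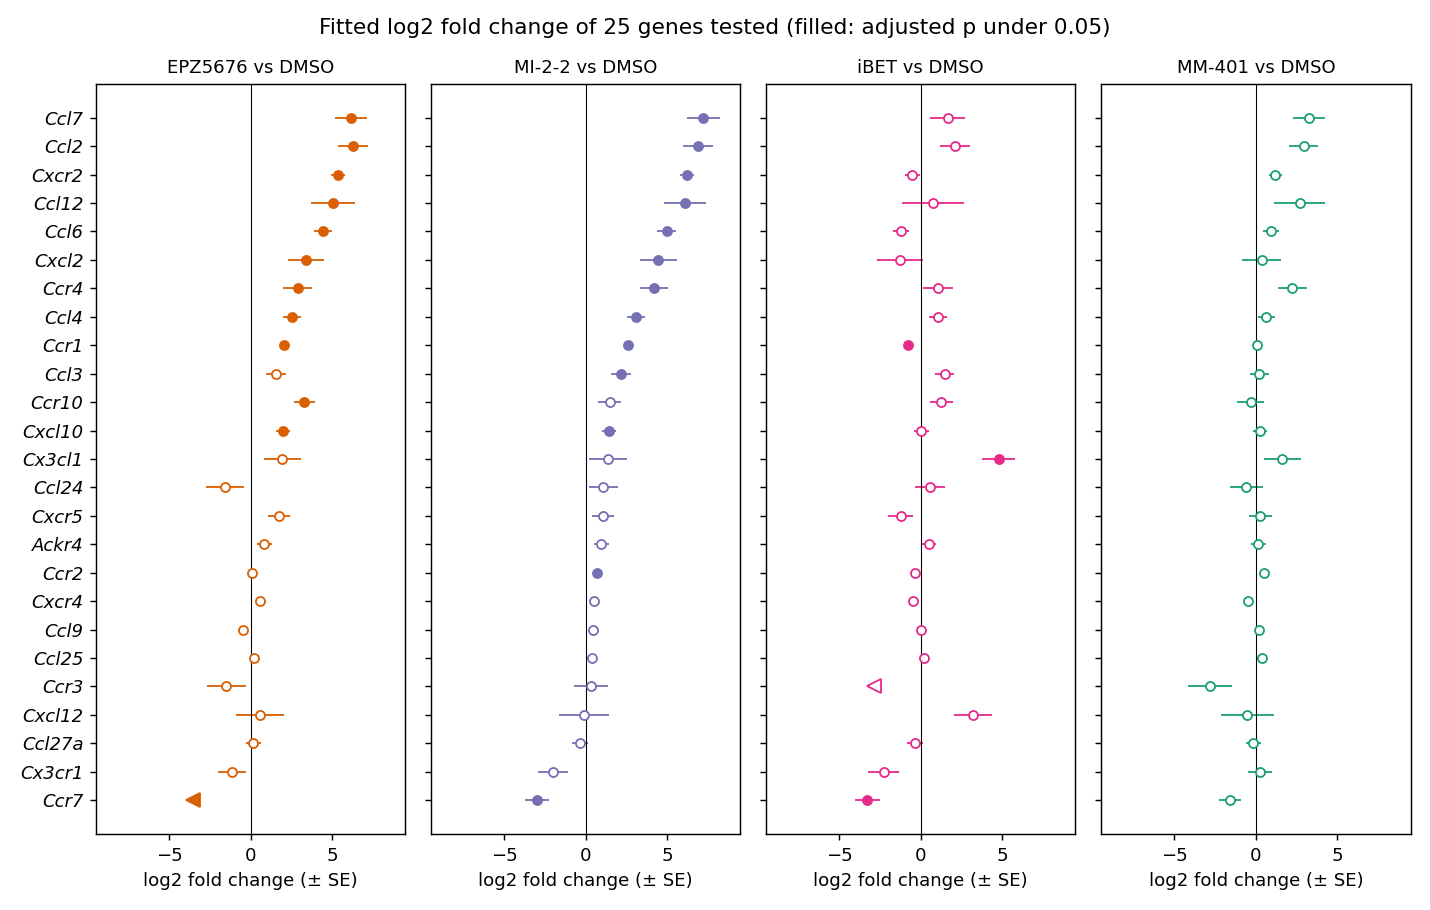
Log2 fold change against DMSO of 25 chemokine genes tested, in 1 panel per inhibitor, with bars of 1 SE from the edgeR fit of all 10 libraries and filled points where the adjusted p was under 0.05. Triangles are bounds for Ccr7 with EPZ5676 and Ccr3 with iBET, which had no read there, and most filled points with EPZ5676 and MI-2-2 lie to the right of 0.

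Cxcr2, the receptor that maturing neutrophils gain, was among the genes that rose most. Its level was 4.71 and 1.77 CPM in the DMSO libraries, 140 and 132 with EPZ5676 and 232 and 261 with MI-2-2. It was 7.19 and 7.90 with MM-401 and 3.09 and 1.57 with iBET. All EPZ5676 and MI-2-2 libraries lay far above the others. Its fitted log2 fold change was 5.36 ± 0.44 (SE) with EPZ5676 (edgeR adjusted p = 0.000418) and 6.22 ± 0.45 with MI-2-2 (edgeR adjusted p = 0.000287), and lay between 4.87 and 7.12 without either DMSO library.

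The CXCR2 ligands were sparse. Cxcl2 had 0.156 and 0.384 CPM in DMSO, 4.03 and 1.60 with EPZ5676, 6.37 and 5.37 with MI-2-2, 0.634 and 0.0420 with MM-401, and 0.221 and 0 with iBET. The MI-2-2 and EPZ5676 libraries were above all others, and Cxcl2 passed the count filter only with their help. Its log2 fold change was 3.39 ± 1.11 with EPZ5676 (edgeR adjusted p = 0.0447) and 4.45 ± 1.13 with MI-2-2 (edgeR adjusted p = 0.0161). The call with EPZ5676 was lost without any 1 of the 6 DMSO, EPZ5676 and MI-2-2 libraries (adjusted p up to 0.191), and that with MI-2-2 without either of its own libraries (up to 0.0552). Without the first and the second DMSO library the values were 2.86 and 4.16 with EPZ5676 and 3.92 and 5.22 with MI-2-2. Cxcl3 had 10 reads with EPZ5676, 9 with MI-2-2, 1 with iBET and none in the DMSO and MM-401 libraries, and Cxcl1 stayed under the read minimum.

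Ccl2, Ccl7 and Ccl12, the monocyte-attracting ligands of CCR2, lie near each other on 1 chromosome and rose together with EPZ5676 and MI-2-2. Ccl2 was at 0.156 and 0.767 CPM in DMSO, 20.7 and 49.3 with EPZ5676, 22.1 and 84.4 with MI-2-2, 3.34 and 3.53 with MM-401, and 1.81 and 2.03 with iBET. Every inhibitor library was above both DMSO libraries. On the log2 scale the change was 6.29 ± 0.91 with EPZ5676 (edgeR adjusted p = 0.00201) and 6.90 ± 0.93 with MI-2-2 (edgeR adjusted p = 0.00143). Without the first and the second DMSO library it was 5.51 and 7.78 with EPZ5676 and 6.11 and 8.40 with MI-2-2. With MM-401 it was 2.94 ± 0.89 (edgeR adjusted p = 0.333, DESeq2 adjusted p = 0.00840) and with iBET 2.11 ± 0.91 (edgeR adjusted p = 0.153, DESeq2 adjusted p = 0.0329). With the replicate number as a block, the change of Ccl2 with iBET was 2.22 (edgeR adjusted p = 0.0458). That block sets the second DMSO library beside second libraries with unlike Y-linked and Xist reads.

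Ccl7 had 4 and 3 reads in the DMSO libraries (0.156 and 0.144 CPM), against 6.36 and 16 CPM with EPZ5676, 8.63 and 38.2 with MI-2-2, 1.56 and 1.43 with MM-401, and 0.265 and 0.689 with iBET. Again no inhibitor library overlapped DMSO. The fitted log2 change was 6.17 ± 0.98 with EPZ5676 (edgeR adjusted p = 0.00274), 7.24 ± 1.00 with MI-2-2 (edgeR adjusted p = 0.00156) and 3.27 ± 0.99 with MM-401 (edgeR adjusted p = 0.333, DESeq2 adjusted p = 0.0196). Ccl12 had 0 and 1 read in DMSO, 9 and 29 with EPZ5676, 13 and 84 with MI-2-2, 4 in each MM-401 library and 1 in each iBET library. It passed the count filter only with the help of EPZ5676 or MI-2-2 libraries. Its ratio to DMSO was 42.3 with EPZ5676 (95% counting interval 7.14 to 1712) and 89.5 with MI-2-2 (15.7 to 3571). It was called with both (edgeR adjusted p = 0.0200 and 0.00785), and the call with EPZ5676 was lost without the first DMSO library (adjusted p = 0.0739) and without the second EPZ5676 library (0.101).

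For each of these 3 ligands the second library was more than 2-fold higher than the first, with EPZ5676 and with MI-2-2. The macrophage gene Mrc1 was at 75.0 and 142 CPM in the same EPZ5676 libraries and at 71.9 and 247 in those of MI-2-2, against 1.67 and 1.05 in DMSO. All 7 monocyte and macrophage markers of a list were in the table. Their sum was 1165 to 1719 CPM in DMSO, 1447 to 1779 with EPZ5676, 1994 to 2251 with MI-2-2, 1563 to 1630 with MM-401 and 1113 to 1448 with iBET, most of it from Ly6c2, and at most 1 of the 7 was without a read in a library. The part of these cells in the levels of the ligands was not tested.

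The receptor gene of these ligands, Ccr2, was called higher with MI-2-2 but not with EPZ5676. It was at 93.9 and 91.0 CPM in DMSO, 107 and 88.9 with EPZ5676, 140 and 162 with MI-2-2, 129 in both MM-401 libraries, and 65.3 and 77.0 with iBET. With EPZ5676 the libraries overlapped DMSO, and the log2 fold change of 0.08 ± 0.14 (edgeR adjusted p = 0.658) turned to -0.08 under total-count scaling and to -0.05 without the first EPZ5676 library. With MI-2-2 it was 0.71 ± 0.14 (edgeR adjusted p = 0.00562) and was called under every alternative.

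Ccr1, a receptor for Ccl3, Ccl6 and Ccl9, lies in the same cluster, with Ccr1l1 and Ccr3 between it and Ccr2. Its level was 47.8 and 49.9 CPM in DMSO, 169 and 233 with EPZ5676, 248 and 349 with MI-2-2, 55.2 and 48.2 with MM-401, and 28.8 and 26.9 with iBET. The EPZ5676 and MI-2-2 libraries lay above DMSO and the iBET libraries below it. Relative to DMSO the log2 fold change was 2.04 ± 0.21 with EPZ5676 (edgeR adjusted p = 0.000681), 2.61 ± 0.21 with MI-2-2 (edgeR adjusted p = 0.000372) and -0.81 ± 0.20 with iBET (edgeR adjusted p = 0.0383).

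Within this cluster Ccr1 had larger fitted changes than Ccr2 with EPZ5676 and MI-2-2, and the difference between the changes was not tested. Ccr3, an eosinophil receptor, had 1 and 20 reads in the DMSO libraries and no read with iBET, at least 7.33-fold lower (edgeR adjusted p = 0.0819), a difference that rests on the second DMSO library.

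**Figure D3:**
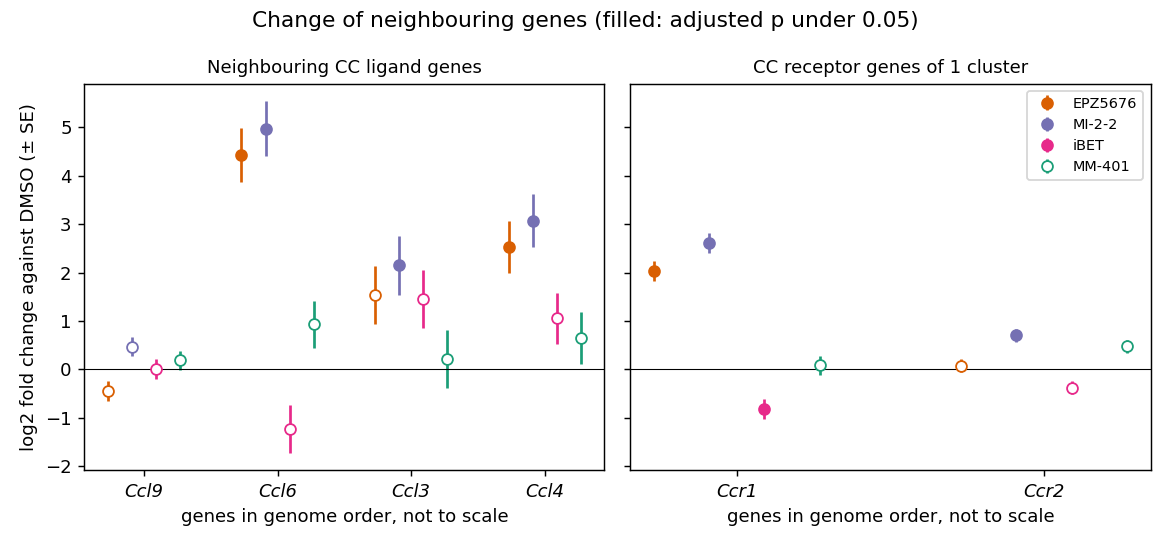
Log2 fold change against DMSO of 4 neighbouring ligand genes and 2 receptor genes of 1 cluster, in genome order and not to scale, with bars of 1 SE and filled points where the edgeR adjusted p was under 0.05. Ccl9 stood at -0.45 and 0.47 with EPZ5676 and MI-2-2 beside Ccl6 at 4.43 and 4.97, and Ccr2 lay below Ccr1 with these inhibitors. Ccr1l1 and Ccr3, which lie between Ccr1 and Ccr2, are left out for their low counts.

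Ccl9, Ccl6, Ccl3 and Ccl4 are 4 ligand genes in a row with no other protein-coding gene between them. Ccl6 was at 56.7 and 27.8 CPM in DMSO, 690 and 1133 with EPZ5676, 943 and 1714 with MI-2-2, 101 and 60.4 with MM-401, and 23.3 and 12.9 with iBET. It was far above DMSO in all EPZ5676 and MI-2-2 libraries, above it with MM-401 and below it with iBET. Its log2 change was 4.43 ± 0.55 with EPZ5676 (edgeR adjusted p = 0.00122) and 4.97 ± 0.57 with MI-2-2 (edgeR adjusted p = 0.000873). Without the first and the second DMSO library these were 5.04 and 4.03, and 5.59 and 4.58. With iBET it was -1.22 ± 0.50 (edgeR adjusted p = 0.133), which lay between -0.61 without the first DMSO library and -1.65 without the second.

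Ccl9, next to it, was at 198 and 174 CPM in DMSO, 121 and 152 with EPZ5676, 218 and 298 with MI-2-2, 224 and 199 with MM-401, and 162 and 212 with iBET. Its fitted log2 fold change was -0.45 ± 0.20 with EPZ5676 (edgeR adjusted p = 0.118) and 0.47 ± 0.20 with MI-2-2 (edgeR adjusted p = 0.0976), and neither was called. Under total-count scaling the value with EPZ5676 was -0.63 (adjusted p = 0.0320). Ccl6 and Ccl9 share the receptor CCR1, and the difference between their changes was not tested.

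Ccl3, a macrophage inflammatory protein, was at 7.87 and 24.7 CPM in DMSO, 44.1 and 50.2 with EPZ5676, 42.8 and 101 with MI-2-2, 26 and 11.7 with MM-401, and 41.4 and 47.8 with iBET. All libraries of EPZ5676, MI-2-2 and iBET were above both DMSO libraries, which were themselves more than 2-fold apart. The log2 fold change with MI-2-2 was 2.15 ± 0.61 (edgeR adjusted p = 0.0248), and the call was lost without the first DMSO library (adjusted p = 0.0554) and without the second MI-2-2 library (0.157). With EPZ5676 it was 1.54 ± 0.60 (edgeR adjusted p = 0.0777), and 2.61 (adjusted p = 0.0171) without the second DMSO library but 0.94 (0.204) without the first. With iBET it was 1.46 ± 0.60 (edgeR adjusted p = 0.140), and 2.50 without the second DMSO library (adjusted p = 0.0298) and 0.86 without the first (adjusted p = 0.296).

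Ccl4, a close relative of Ccl3, was steadier in the controls, at 2.06 and 2.11 CPM, against 9.22 and 14.9 with EPZ5676, 10.4 and 24.7 with MI-2-2, 4.65 and 1.89 with MM-401, and 4.42 and 4.29 with iBET. The MM-401 libraries lay on either side of DMSO, and those of the other inhibitors above it. On the log2 scale the change was 2.53 ± 0.54 with EPZ5676 (edgeR adjusted p = 0.00902, and 0.0540 without the second EPZ5676 library) and 3.07 ± 0.55 with MI-2-2 (edgeR adjusted p = 0.00411).

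Cxcr4, the marrow-retention receptor and the receptor with the highest level per kilobase in DMSO, was at 165 and 289 CPM there, 323 and 354 with EPZ5676, 308 and 351 with MI-2-2, 158 and 166 with MM-401, and 138 and 193 with iBET. The EPZ5676 and MI-2-2 libraries were above both DMSO libraries, but those of MI-2-2 by little over the second. The fitted log2 change was 0.57 ± 0.26 with EPZ5676 (edgeR adjusted p = 0.117) and 0.54 ± 0.26 with MI-2-2 (edgeR adjusted p = 0.134). Without the second DMSO library these were 1.06 (adjusted p = 0.00664) and 1.03 (0.00702), and without the first 0.23 (0.366) and 0.19 (0.442). With both DMSO libraries kept and the replicate number as a block, Cxcr4 was called with EPZ5676 (0.61, edgeR adjusted p = 0.0287) and with MI-2-2 (0.57, edgeR adjusted p = 0.0343). Such a block pairs the second DMSO library with libraries that differ from it in Y-linked reads and Xist. Against MM-401, whose libraries were close together, Cxcr4 was called higher with EPZ5676 (1.06 ± 0.26, edgeR adjusted p = 0.0180) and with MI-2-2 (1.03 ± 0.26, edgeR adjusted p = 0.0193). Its ligand Cxcl12 had at most 3 reads in any library outside iBET, and 10 and 21 reads with iBET (edgeR adjusted p = 0.107).

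The lower receptors moved in both directions. Ccr7, which guides cells to lymph nodes, was at 0.818 and 0.863 CPM in DMSO (39 reads in all), without a read with EPZ5676, at 0.130 and 0.0730 with MI-2-2, 0.423 and 0.126 with MM-401, and 0.0442 and 0.115 with iBET. All inhibitor libraries were below DMSO. It was at least 11.7-fold lower with EPZ5676, taking 3 reads over the group as the floor (edgeR adjusted p = 0.00501), and its log2 fold change was -3.01 ± 0.74 with MI-2-2 (edgeR adjusted p = 0.0174) and -3.29 ± 0.77 with iBET (edgeR adjusted p = 0.0361). The MI-2-2 call was lost without either MI-2-2 library (adjusted p up to 0.128), that of iBET without any 1 of the 8 inhibitor libraries (up to 0.209), and both by DESeq2 (0.0629 and 0.0714).

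Ccr4, a receptor known from T cells, was at 0.312 and 0 CPM in DMSO, 1.36 and 1.18 with EPZ5676, 2.77 and 3.47 with MI-2-2, 1.10 and 0.504 with MM-401, and 0.398 and 0.306 with iBET. The MI-2-2 libraries were the highest. Relative to DMSO the log2 fold change was 2.90 ± 0.89 with EPZ5676 (edgeR adjusted p = 0.0350) and 4.2 ± 0.89 with MI-2-2 (edgeR adjusted p = 0.00777), and the call with EPZ5676 was lost without any 1 of the 8 inhibitor libraries (adjusted p up to 0.109). Without the second DMSO library the values were 2.03 and 3.34, and without the first no control read was left. Of the 7 T and NK cell markers only Nkg7 passed 2 reads in a library, with 65.7 CPM in the second DMSO library and 0.0383 to 4.75 in the others.

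Ccr10, a receptor for skin-homing ligands, was at 0.0389 and 0.240 CPM in DMSO, 1.46 and 1.27 with EPZ5676, 0.347 and 0.402 with MI-2-2, 0.127 and 0.0840 with MM-401, and 0.265 and 0.383 with iBET. It was highest in the EPZ5676 libraries, and it passed the count filter only with their help. Its log2 change was 3.31 ± 0.67 with EPZ5676 (edgeR adjusted p = 0.00700) and 1.46 ± 0.70 with MI-2-2 (edgeR adjusted p = 0.129). Without the first and the second DMSO library it was 2.48 and 4.98 with EPZ5676, and 0.64 and 3.14 with MI-2-2, the last of which passed (adjusted p = 0.0198). Between MI-2-2 and EPZ5676 it differed by -1.85 ± 0.58, which did not pass (edgeR adjusted p = 0.501).

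Cxcl10, an interferon-inducible ligand of CXCR3, was at 0.506 and 0.336 CPM in DMSO, 2.13 and 1.32 with EPZ5676, 1.30 and 1.02 with MI-2-2, 0.465 and 0.546 with MM-401, and 0.398 and 0.459 with iBET. The EPZ5676 and MI-2-2 libraries were above the other 6. Its fitted log2 fold change was 2.01 ± 0.43 with EPZ5676 (edgeR adjusted p = 0.00923, and 0.0618 without the first EPZ5676 library) and 1.44 ± 0.43 with MI-2-2 (edgeR adjusted p = 0.0302). The MI-2-2 call was lost under 9 of its 14 alternatives, among them the removal of the second DMSO library or of any 1 MI-2-2, MM-401 or iBET library (adjusted p up to 0.137). An overlapping gene on the other strand, Art3, may share reads with Cxcl10, since nothing states that strand was used in counting.

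Cx3cl1, the membrane-bound ligand of CX3CR1, was the chemokine gene called higher with iBET. It had 2 and 1 reads in DMSO and 41 and 52 with iBET, against 1 and 9 with MM-401, 5 and 6 with EPZ5676, and 1 and 8 with MI-2-2. The iBET libraries stood at 1.81 and 1.99 CPM and all others at or below 0.378. The ratio to DMSO was 29.6 (95% counting interval 9.82 to 146), with an edgeR adjusted p of 0.0204, and the call was lost without either iBET library (adjusted p up to 0.104). Its receptor gene Cx3cr1 was at 0.133 and 0.0383 CPM with iBET and 0.195 and 0.671 in DMSO (edgeR adjusted p = 0.139).

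The remaining tested genes were not called against DMSO with any inhibitor. Ccl25, a thymic and gut ligand, was even across all libraries, at 4.27 to 6.83 CPM. Ccl27a, at 0.421 to 0.922 CPM, has a near-identical copy in Ccl27b, which had no read, and Ccl25, Ccl27a, Cxcr5 and Ackr4 overlap genes on the other strand. Cxcr5, a receptor of B cells, was at 0.428 and 0.336 CPM in DMSO and 1.55 and 1.08 with EPZ5676 (edgeR adjusted p = 0.0697). Ackr4, a scavenging receptor, stayed at 0.288 to 0.767 CPM.

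With iBET, 3 of the 26 chemokine genes were called against DMSO, Cx3cl1 higher and Ccr1 and Ccr7 lower, against 13.9% of all genes tested (6.38% higher, 7.54% lower). The median log2 fold change was 0.02 over the chemokine genes and -0.04 over all genes. Both iBET libraries were above both DMSO libraries for 8 of the 26 genes and below them for 7, against 27.7% and 26.9% of all genes. A total of 7 were called without the first DMSO library (27.9% of all genes) and 4 without the second (21.6%), 2 without any 1 EPZ5676 or MI-2-2 library, 1 (Cx3cl1) without either MM-401 library, and none without either iBET library. The call of Ccr1 was lost without the second DMSO library (adjusted p = 0.0531) and without any 1 of the MM-401 and iBET libraries (up to 0.194). By DESeq2, 5 were called (Ccl2, Ccl6, Ccr1, Ccr3 and Cx3cl1), against 20.5% of all genes.

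With MM-401 no chemokine gene was called by edgeR, and neither was any other gene (0% of 12971). The smallest adjusted p was 0.316, and 7 chemokine genes had an unadjusted p under 0.05. DESeq2 called 2, Ccl2 and Ccl7 (2.26% of all genes). Without the first DMSO library 5 were called (Ccr3, Ccr4, Cxcr2, Cxcr4 and Xcr1), against 10.2% of all genes, and without the second none. The median log2 fold change was 0.26 over the chemokine genes and -0.01 over all genes. Both MM-401 libraries were above both DMSO libraries for 11 of the 26 genes and below them for 1, against 19.5% and 17.8% of all genes tested.

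A fold rule without a test was also used. It took genes with mean CPM, here scaled by total counts, at least 2-fold apart with 0.1 CPM added. It considered only genes with 1 CPM or more in the higher group. Past the threshold were 13 of the 17 chemokine genes considered with EPZ5676 and 12 of 16 with MI-2-2, all higher. Of all genes considered, 26.8% and 27.5% were past it in either direction. With iBET, of 11 chemokine genes considered, 3 were higher (Ccl2, Ccl3, Cx3cl1) and 1 lower (Ccl6), against 14.9% of all genes in either direction. With MM-401, 4 of 12 were higher (among them Ccl2, Ccl7 and Cxcr2), against 6.44% in either direction. Without the second MM-401 library 7 were past the threshold.

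Between MI-2-2 and EPZ5676 no chemokine gene was called by edgeR (0.0154% of all genes, 0.00771% in each direction), 7 had an unadjusted p under 0.05, and DESeq2 called Ccl9 and Ccr2. The smallest adjusted p was 0.267, for Ccr2, which was higher by 0.62 ± 0.14 with MI-2-2. Ccl9 was higher by 0.92 ± 0.21 (edgeR adjusted p = 0.276). Neither value shows that the 2 inhibitors act alike on these genes.

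Against MM-401, 12 chemokine genes were called with EPZ5676 (10 higher and 2 lower, against 33.3% of all genes, 16.7% higher and 16.6% lower) and 11 with MI-2-2, all higher (35.7%, 18% higher and 17.6% lower). The genes lower with EPZ5676 were Ccl9 (-0.64 ± 0.21, edgeR adjusted p = 0.0462) and Ccr7. Both counts fell without either MM-401 library. The count for EPZ5676 also fell without either EPZ5676 library, and that for MI-2-2 without either MI-2-2 library. Without the second DMSO library the count for MI-2-2 rose. The shares of all genes called in these fits are not given, so that the shifts are not read as particular to chemokine genes. Cxcr2 was higher than with MM-401 by 4.17 ± 0.41 with EPZ5676 (edgeR adjusted p = 0.000923) and by 5.03 ± 0.42 with MI-2-2 (edgeR adjusted p = 0.000750).

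With iBET 4 genes were lower than with MM-401 and none higher (11.4% of all genes, 5.48% higher and 5.96% lower). These were Ccr2 (-0.85 ± 0.14, edgeR adjusted p = 0.0101), Ccr1 (-0.89 ± 0.20, edgeR adjusted p = 0.0310), Ccl6 (-2.16 ± 0.51, edgeR adjusted p = 0.0339) and Cxcr2 (-1.71 ± 0.42, edgeR adjusted p = 0.0398). All of these calls were lost without any 1 of the MM-401 and iBET libraries, and some without either EPZ5676 library. Against iBET, 14 genes were called with EPZ5676 (13 higher and 1 lower, against 37.6% of all genes, 19.1% higher and 18.5% lower) and 16 with MI-2-2 (15 higher and 1 lower, against 38.8%, 19.7% higher and 19.1% lower), and the lower gene was Cx3cl1 in both. Both counts fell when 1 library of either group compared was left out, and rose without either DMSO library. The shares of all genes called in these fits are not given either.

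Genes that act behind the receptors were counted from a list. The list of 40 genes of chemokine signalling (G protein subunits, arrestins, receptor kinases, RGS proteins, PI3K-gamma, Rac and Src family kinases) was tested in full. With EPZ5676 22 were called higher and none lower, and with MI-2-2 24 higher and 1 lower, with median log2 fold changes of 0.86 and 0.77. Over all genes tested 18.7% were called higher and 19.4% lower with EPZ5676 and 20.2% and 21.2% with MI-2-2, with medians of -0.06 and -0.05. With iBET 8 were higher and 2 lower, against 6.38% and 7.54% of all genes, and with MM-401 none was called by edgeR. Arrb2, an arrestin that shuts receptors off, was at 127 and 105 CPM in DMSO, 547 and 690 with EPZ5676 and 489 and 553 with MI-2-2. It rose by 2.42 ± 0.19 and 2.17 ± 0.19 on the log2 scale (edgeR adjusted p = 0.000373 and 0.000479), and Pik3r5, a regulatory subunit of PI3K-gamma, by 3.04 ± 0.31 and 3.15 ± 0.31.

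Of the receptors for other chemoattractants, 17 of 25 listed were tested. With EPZ5676 12 were called higher and 2 lower, against 18.7% and 19.4% of all genes. With MI-2-2 12 were higher and none lower, against 20.2% and 21.2%. With iBET none was higher and 3 were lower, against 6.38% and 7.54%. The iBET count in either direction was near the share of all genes, 13.9%. The median log2 fold changes were 2.37, 2.45 and -1.23, and -0.06, -0.05 and -0.04 over all genes. The complement receptor C5ar1 was at 6.23 and 3.07 CPM in DMSO, 190 and 285 with EPZ5676 and 191 and 251 with MI-2-2 (log2 fold change 5.66 ± 0.60 and 5.56 ± 0.60). Fpr2, a formyl peptide receptor, was at 0.896 and 0.0959 CPM in DMSO, 28.1 and 65.5 with EPZ5676 and 81.3 and 159 with MI-2-2. Gpr84, a receptor for medium-chain fatty acids, rose by 1.72 ± 0.18 with EPZ5676 and 1.47 ± 0.17 with MI-2-2 and fell by 2.62 on the log2 scale with iBET (edgeR adjusted p = 0.00107).

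Another list held 16 genes of the chemokine system with other symbols, of which 10 were tested. With EPZ5676 5 were called higher and 3 lower, with MI-2-2 5 higher and 4 lower, and with iBET none higher and 2 lower. Over all genes 38.1%, 41.4% and 13.9% were called in either direction, so that the count with iBET was near that share. The median log2 fold changes were 1.24, 0.98 and -0.20. Pf4, which encodes the platelet chemokine CXCL4, was at 0.506 and 0.431 CPM in DMSO, 3.78 and 2.97 with EPZ5676, 3.08 and 1.10 with MI-2-2, and 0.0442 and 0.0765 with iBET. Cklf, a chemokine-like factor, rose by 1.58 ± 0.26 and 1.56 ± 0.26 with EPZ5676 and MI-2-2, and Cmtm7, a family member, fell by 1.17 and 1.26 on the log2 scale. Over the 3 lists, 15 of 67 tested genes were called with iBET (13.9% of all genes), and 28 with the replicate number as a block. The count fell without any 1 iBET, MM-401, EPZ5676 or MI-2-2 library. The shares of all genes called under these alternatives are not given, so that the changes are not read as particular to the lists. With MM-401 some were called without the first DMSO library, as were other genes.

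The summed markers of neutrophils and of progenitors moved with the same inhibitors. The 6 neutrophil markers in the table (Ltf, Camp, Ngp, Lcn2, Mmp8 and Cebpe) summed to 820 and 322 CPM in DMSO, 18367 and 23840 with EPZ5676, 17239 and 17164 with MI-2-2, 1104 and 1283 with MM-401, and 159 and 97.4 with iBET, and none of the 6 was at 0 in any library. The 7 progenitor markers (Kit, Cd34, Myb, Mpo, Elane, Prtn3 and Ctsg) summed to 9898 and 13702 CPM in DMSO, 10909 and 11291 with MM-401, 3081 and 3327 with EPZ5676, 2692 and 2026 with MI-2-2, and 6773 and 5990 with iBET. With EPZ5676 and MI-2-2 all progenitor markers but Kit lay below both DMSO libraries. Kit was at 45.9 and 180 CPM in DMSO, 139 and 111 with EPZ5676, and 82.6 and 82.9 with MI-2-2. With iBET Cd34 overlapped DMSO and Ctsg lay above it, at 3594 and 3445 CPM against 2641 and 1226. Mpo was at 386 and 4817 CPM in the DMSO libraries. The part of these markers in the chemokine results was not tested.

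**Figure D4:**
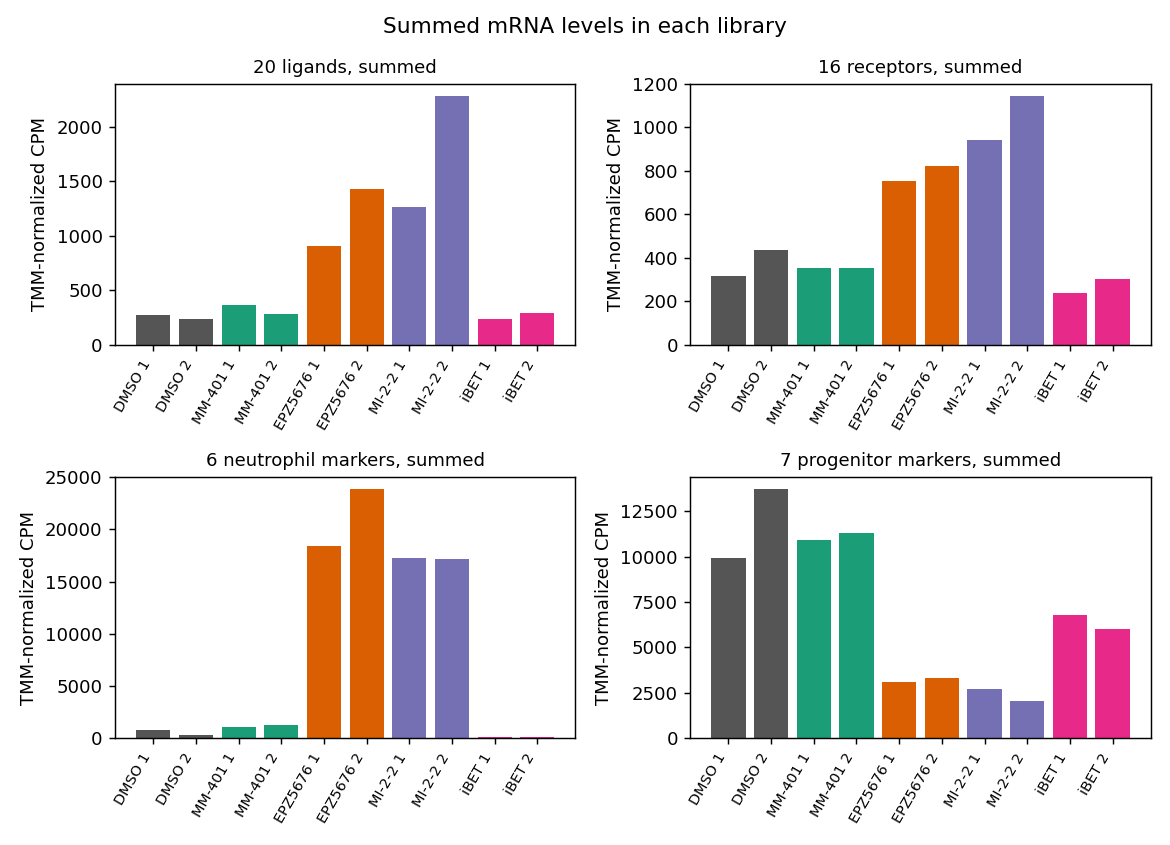
Summed TMM-normalized CPM, on linear axes from 0, of the 20 ligands, the 16 receptors, 6 neutrophil markers and 7 progenitor markers, with 1 bar per library. The EPZ5676 and MI-2-2 bars are the highest for ligands, receptors and neutrophil markers and the lowest for progenitor markers.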

How the data were processed

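RNA was sequenced from 2 libraries for each of 5 conditions. The authors counted reads per gene and deposited raw counts, without normalization. TopHat2, Subread and DESeq, with the build mm9, are named in the submitters' processing notes, without versions or roles, and the treatment of strand and of reads that match several genes is not given in the sources used here. Library totals of 20394762 to 29473127 reads set the counting precision.

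Samples were grouped by their titles. Counts were tested with edgeR 4.0.16 in R 4.3.3 (its quasi-likelihood test, glmQLFTest, after filterByExpr and TMM), all 10 libraries being fitted at once so that the 5 conditions shared 1 estimate of the spread. P-values (two-sided) were adjusted by Benjamini-Hochberg over 12971 genes within each of 10 pairwise comparisons, at a threshold of 0.05. They measure the spread between these libraries, which may be technical in part. Between the DMSO libraries it was not technical alone, since these differed in Y-linked reads and Xist. The fit was tested on simulated data with known changes between EPZ5676 and DMSO. It recovered 93% of 100 genes changed 4-fold and 52% of 100 genes changed 2-fold. There were 15 false calls among 12472 genes tested. A gene that was not called may therefore still have changed about 2-fold.

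Where a group had no read, folds are bounds against 3 reads over the group. With 1 to 3 reads, a ratio with an exact 95% interval is given. Both cover counting error only. Exon lengths came from GENCODE M21 and promoters from RefSeq.

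Alternatives were total-count scaling, DESeq2 1.42.0, no filter, at least 5 CPM in 2 libraries, the replicate number as a block, and leaving out each library. For the fold rule they were a pseudocount of 1 CPM, no minimum, and TMM scaling. The chemokine genes and gene lists were chosen with earlier results of these data known. Values per library are given for genes called against DMSO or with a mean of 20 CPM or more in a condition, and of each list up to 6 genes with the smallest adjusted p were eligible to be named. Some genes that meet these rules are counted but not reported by name here. Mrc1, Nkg7, Klf1, Itga2b, the other monocyte, macrophage and progenitor markers given with values and the sex-linked genes were singled out after their values were seen.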

Additional observations from a re-analysis of the deposited data

How the results depend on the processing

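The count of chemokine genes called against DMSO fell from 13 to 7 with EPZ5676, from 14 to 9 with MI-2-2 and from 3 to 1 with iBET when genes needed at least 5 CPM in 2 libraries. The same filter gave 8 in place of 14 for EPZ5676 against iBET and 9 in place of 16 for MI-2-2 against iBET. This filter tested 12 chemokine genes in place of 26, and every gene called under it was also called with the first filter. The calls against DMSO that dropped out were of genes it did not test. DESeq2 called 5 with iBET, 2 with MM-401 and 2 between MI-2-2 and EPZ5676. Without 1 library, the counts lay between 9 and 15 for EPZ5676, 10 and 16 for MI-2-2, 0 and 7 for iBET and 0 and 5 for MM-401 against DMSO. Against MM-401 they ranged from 5 to 15 for EPZ5676, from 4 to 17 for MI-2-2 and from 0 to 6 for iBET. Against iBET they ranged from 7 to 17 for EPZ5676 and from 8 to 17 for MI-2-2. By the fold rule, 9 genes passed with iBET and 11 with MM-401 without a minimum, 2 with MM-401 at a pseudocount of 1 CPM, and 3 to 7 with MM-401 without 1 library. The 67 genes of the pathway lists, whose alternatives were chosen after seeing the data, gave 24 calls by DESeq2 with iBET and 6 with MM-401, and 1 to 21 and 0 to 13 without 1 library. The shares of all genes called are not given in this section, so that the changes are not read as particular to chemokine genes. Apart from the genes that the filter at 5 CPM left out, the cause of these changes was not tested.

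Values that turned sign were those of Ccr2 with EPZ5676 (-0.083 under total-count scaling, and between -0.053, without the first EPZ5676 library, and 0.21 without 1 library), Cx3cl1 with MI-2-2 (between -0.51, without the second MI-2-2 library, and 2.10 without the first) and Cxcr4 with iBET (between -0.80 without the first DMSO library, where it was called, and 0.00091 without the second). Of the calls against DMSO, 8 of 13 with EPZ5676 (among them Ccl2, Ccl6, Ccl7, Ccr1, Ccr7, Ccr10 and Cxcr2), 10 of 14 with MI-2-2 (among them Ccl2, Ccl4, Ccl6, Ccl7, Ccl12, Ccr1, Ccr2, Ccr4 and Cxcr2) and 0 of 3 with iBET held under every alternative in which the gene was tested. Ccr10 and Ccl12 passed the main filter only with the help of EPZ5676 or MI-2-2 libraries. Of the other comparisons of a single gene with DMSO under an alternative, 657 kept direction and call, 50 lost a call and 20 gained one.

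With the replicate number as a block, the comparisons with DMSO gave 14 calls for EPZ5676 and 15 for MI-2-2, Cxcr4 being added in both, 4 with iBET, Ccl2 being added, and 0 with MM-401, and the pathway lists gave 28 calls with iBET in place of 15. The labels do not say what a number shares, and the second DMSO library differed from the other second libraries in Y-linked reads and Xist. Deviations of same-numbered libraries from their group means correlated at 0.278 to 0.666 between conditions, across genes. The 11 chemokine genes with too few reads for the filter were not tested, and whether more depth or more libraries would change a call was not tested.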
